A study of Mus musculus with 6 samples.

Results

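DNA replication and deoxynucleotide synthesis were followed through 45 genes, taken by gene symbol from a list covering origin licensing, the replication fork and dNTP supply. All 45 were found among the 39179 genes of the deposited tables. The samples were liver tumours of wild-type C57BL/6 mice. Their hepatocytes had received transposons by hydrodynamic injection, in which a large volume of DNA solution is pressed quickly into the tail vein. In 3 samples the transposons carried Myc with NrasG12V, a mutant Nras that is locked in the active state of this small GTPase, and in the other 3 samples they carried Myc with Akt1, a kinase that acts downstream of PI3-kinase. Both groups therefore shared Myc, and no group of untreated liver was used here. The sources used here give neither the age nor the sex of the mice, the time to harvest or the promoter of each transgene. They also do not tie samples to separate mice, so p-values measure only the spread between these samples, which may be technical.

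Poly(A) RNA had been sequenced to 17881282 to 27865094 gene reads per library. Values are CPM, the reads of a gene scaled to 1000000 gene reads per library. A gene without a read could be present at up to 3 reads, or 0.108 to 0.168 CPM, and this floor covers counting error only. The liver label was met by the albumin gene Alb, which took 9.07% to 12.4% of the reads in Myc/NrasG12V and 2.99% to 3.85% in Myc/Akt1. Mitochondrially encoded genes lay the other way, at 2.05% to 3.99% of the reads in Myc/NrasG12V and 7.62% to 9.09% in Myc/Akt1. Of all tested genes the median log2 difference, Myc/NrasG12V minus Myc/Akt1, was -0.26 in CPM and 0.00 after scaling with TMM factors. These factors correct for such unequal shares, so every difference below should be read against this shift. The part of either share in this shift was not tested. In bulk tumour RNA, fewer cells in S phase and less RNA per cell cannot be told apart.

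As background, replication starts in G1 when the origin recognition complex, CDC6 and CDT1 load the MCM helicase on DNA, a step that geminin blocks once S phase has begun. CDC45 and the GINS complex then switch the helicase on, primase and DNA polymerase alpha lay down primers, and polymerases epsilon and delta, held by the PCNA clamp, copy the strands. Ribonucleotide reductase, thymidylate synthase and thymidine kinase provide the building blocks. Most of these genes are transcribed around the G1 to S transition, largely through E2F factors, and most hepatocytes of an adult liver are quiescent and hold few of these transcripts.

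Since these genes are known to be transcribed together in the cell cycle, the promoters of 5 of them are shown, each as the stretch of up to 250 bases just before the RefSeq transcription start (GRCm38.p6, gene strand, 5′ to 3′). Mcm5, Mcm6 and Pola1 were chosen because they hold an E2F word. Mcm10 and Rrm2 were chosen because they were among the members with the largest differences and hold no E2F word. Capitals mark the 4 spellings of the E2F word searched (TTTCCCGC, TTTGGCGC, TTTCGCGC and TTTGCCGC) and the CCAAT box, the binding word of the factor NF-Y, both on either strand. The Mcm5 window is chr8:75109259-75109508 on the plus strand, the Mcm6 window chr1:128359706-128359955 on the minus strand, the Pola1 window chrX:93632156-93632405 on the minus strand, the Mcm10 window chr2:5012792-5013041 on the minus strand and the Rrm2 window chr12:24708004-24708240 on the plus strand, the last with the 13 bases nearest the start left out because they lie inside the annotated gene.
Mcm5: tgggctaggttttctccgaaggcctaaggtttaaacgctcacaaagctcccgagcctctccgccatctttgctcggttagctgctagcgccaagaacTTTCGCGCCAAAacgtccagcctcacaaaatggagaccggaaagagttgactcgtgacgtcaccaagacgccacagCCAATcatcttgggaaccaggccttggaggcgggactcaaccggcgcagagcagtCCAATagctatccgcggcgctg
Mcm6: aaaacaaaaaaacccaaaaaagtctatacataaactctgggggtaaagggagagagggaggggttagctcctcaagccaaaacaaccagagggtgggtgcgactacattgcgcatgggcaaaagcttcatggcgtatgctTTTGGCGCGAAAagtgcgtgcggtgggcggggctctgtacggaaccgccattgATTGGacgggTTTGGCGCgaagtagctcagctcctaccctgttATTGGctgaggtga
Pola1: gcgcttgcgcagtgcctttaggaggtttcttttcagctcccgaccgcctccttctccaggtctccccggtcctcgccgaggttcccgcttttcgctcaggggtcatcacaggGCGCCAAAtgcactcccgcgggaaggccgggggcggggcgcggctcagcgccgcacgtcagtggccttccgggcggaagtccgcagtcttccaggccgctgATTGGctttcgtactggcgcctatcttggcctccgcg
Mcm10: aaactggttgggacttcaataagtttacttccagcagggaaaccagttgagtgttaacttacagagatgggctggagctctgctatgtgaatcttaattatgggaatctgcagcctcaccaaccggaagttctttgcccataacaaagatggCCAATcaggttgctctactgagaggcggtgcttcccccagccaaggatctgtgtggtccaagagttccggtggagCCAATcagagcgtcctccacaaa
Rrm2: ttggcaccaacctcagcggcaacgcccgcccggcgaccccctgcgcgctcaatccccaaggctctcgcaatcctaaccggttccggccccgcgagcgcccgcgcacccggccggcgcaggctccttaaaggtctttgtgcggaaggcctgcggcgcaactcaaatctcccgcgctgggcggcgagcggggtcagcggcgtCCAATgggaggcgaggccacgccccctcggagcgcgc
In Mcm5 a forward and a reverse E2F word overlap, starting 153 and 149 bases before the transcription start, and CCAAT stands at 77 and 22 bases. Mcm6 has an overlapping pair at 110 and 106 bases, a further E2F word at 47 bases and CCAAT on the reverse strand at 57 and 14 bases. The Pola1 window holds 1 E2F word at 138 bases on the reverse strand.

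RefSeq gave 43 promoters for 37 of the 45 members. An E2F word stood in 9 of these 43 promoters (20.9%), against 611 of all 32841 promoters (1.86%), and the genes were Cdc6, Gins3, Mcm5, Mcm6, Mcm7, Orc1, Pola1, Rfc3 and Uhrf1. CCAAT stood in 25 of 43 (58.1%), against 33.9% of all promoters. The E-box CACGTG, the preferred word of MYC with MAX, stood in 6 of 43 (14.0%) against 6.02%, and TTTGAA, the cell cycle homology region of late cell cycle genes, in 5 of 43 (11.6%) against 15.99%. The median GC content of the windows was 61.2% for the members and 52.4% for all promoters. The part of base composition in these shares was not tested, and a match describes letters only.

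The comparison of the tumour types asked how the mRNA of Myc/NrasG12V tumours differed from that of Myc/Akt1 tumours. Transcripts of the replication machinery were lower in Myc/NrasG12V in all 7 roles. Of the 44 members that passed the filter on low values, 41 were lower (limma on log2(CPM + 1), Benjamini-Hochberg adjusted p under 0.05 over 14365 genes), where 29.5% of all tested genes were lower. None of the 44 was higher, where 10% of all tested genes were higher at this adjusted p, and 0 of the 44 were higher at an unadjusted p under 0.05. The median difference of the members was -1.71 on the log2 scale, beside -0.26 over all genes. For 42 members every Myc/NrasG12V library lay below every Myc/Akt1 library, a pattern met by 38% of all tested genes, and 38 members were lower with a log2 difference of -1 or less, which 15.7% of all genes were. Summed over the 45 genes, the level was 337, 467 and 415 CPM in the 3 Myc/NrasG12V libraries and 1825, 1807 and 1187 CPM in the 3 Myc/Akt1 libraries, so the groups lay apart, with a 3.95-fold higher mean in Myc/Akt1.

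The scaling of the libraries moved these counts. With TMM factors 39 members were lower, where 17.9% of all genes were lower and 16.2% higher. Relative to the median of all genes, the members' median stood at -1.45 in CPM and at -1.43 with TMM factors. On the recovered reads, 38 members were lower and 0 higher with edgeR, where 17.5% of all genes were lower and 16.6% higher, and 38 lower and 0 higher with DESeq2, where 19.5% were lower and 19.2% higher. The calls of 38 members were made in CPM and in each of 16 alternative settings. The 3 others were Gins3, Orc6 and Pola2, whose values stand with their roles.

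**Figure D1:**
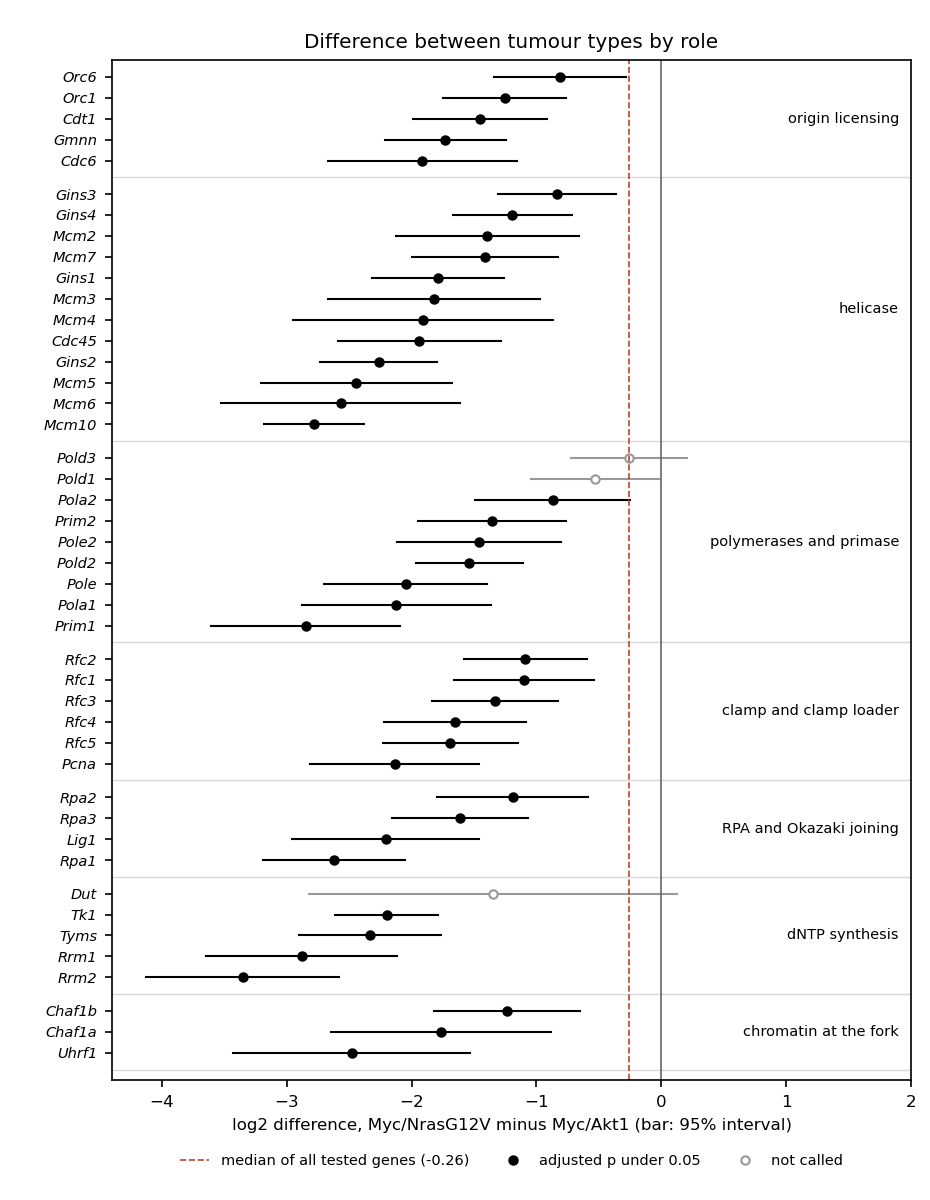
Log2 difference (Myc/NrasG12V minus Myc/Akt1) of the 44 tested members with 95% intervals, grouped by role, with filled points for an adjusted p under 0.05. All points lie left of 0, from -0.26 for Pold3 to -3.35 for Rrm2, and all but Pold3 lie left of the dashed line at the median of all genes (-0.26).

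Origin licensing genes were lower in all 5 cases, with a median log2 difference of -1.45. Cdc6 (ENSMUSG00000017499, chromosome 11, 98907801 to 98923940), the ATPase that loads the helicase, was at 0.812, 1.70 and 0.336 CPM in Myc/NrasG12V and 6.62, 8.33 and 3.91 CPM in Myc/Akt1, and the groups lay apart. It was 6.62-fold higher in Myc/Akt1 (log2 difference -1.91, SE 0.33, adjusted p = 0.00260), and 10.95-fold without Myc/NrasG12V replicate 2, its highest library of that group. Cdt1, the partner of CDC6 in loading, was at 5.25, 6.52 and 5.76 CPM in Myc/NrasG12V and 13.5, 20.5 and 19.8 CPM in Myc/Akt1 (log2 difference -1.45, SE 0.23, adjusted p = 0.00180). Gmnn encodes geminin, the inhibitor of CDT1, and was at 4.01, 5.10 and 5.54 CPM in Myc/NrasG12V and 20.2, 17.8 and 17.3 CPM in Myc/Akt1 (log2 difference -1.73, SE 0.21, adjusted p = 5.33e-04), so the gene for the loader and the gene for its inhibitor were lower together, each with groups that lay apart. Orc1, the ATPase subunit of the origin recognition complex, was low in both groups, at 0.382, 0.367 and 0.783 CPM in Myc/NrasG12V and 3.224, 2.62 and 2.00 CPM in Myc/Akt1, and 5.12-fold higher in Myc/Akt1 (adjusted p = 0.00243). Orc6, the smallest subunit, was at 5.49, 7.44 and 9.17 CPM in Myc/NrasG12V and 13.4, 13.2 and 13.7 CPM in Myc/Akt1, with an adjusted p of 0.0229. The Orc6 call was lost in 10 of the 16 alternative settings, among them TMM factors (adjusted p = 0.0847) and edgeR (adjusted p = 0.0951). Cdc6 and Orc1 passed the filter of 0.457 CPM in 3 libraries through Myc/Akt1, since each had Myc/NrasG12V values below it.

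Helicase genes were lower in 12 of 12 cases, with a median of -1.86. The 6 subunits of the MCM ring summed to 81.1, 124 and 74.3 CPM in Myc/NrasG12V and to 429, 477 and 225 CPM in Myc/Akt1, a 4.04-fold difference of means. Mcm6 (ENSMUSG00000026355, chromosome 1, 128331590 to 128359664) was at 19.96, 34.1 and 10.5 CPM in Myc/NrasG12V and 139.8, 164 and 74.8 CPM in Myc/Akt1, and its lowest Myc/Akt1 library was above its highest Myc/NrasG12V library (log2 difference -2.57, SE 0.42, adjusted p = 0.00195). Mcm5 (ENSMUSG00000005410, chromosome 8, 75109569 to 75128439) was at 6.88, 14.0 and 6.04 CPM in Myc/NrasG12V and 55.1, 64.6 and 35.3 CPM in Myc/Akt1 (log2 difference -2.44, SE 0.33, adjusted p = 8.68e-04). The promoters of both hold an overlapping pair of E2F words. Mcm7 also has an E2F word, while Mcm10 and Rrm2, with larger differences, have none. A link between these words and the size of a difference was not tested. Differences were smaller for Mcm7, at 26.2, 27.0 and 31.99 CPM in Myc/NrasG12V and 94.3, 94.8 and 50.7 CPM in Myc/Akt1 (log2 difference -1.41, SE 0.26, adjusted p = 0.00318), and for Mcm2, at 12.7, 16.5 and 13.1 CPM in Myc/NrasG12V and 48.0, 53.3 and 22.04 CPM in Myc/Akt1 (log2 difference -1.40, SE 0.32, adjusted p = 0.00945). Mcm3 and Mcm4 lay between, at 3.65-fold and 4.16-fold. On the scale of CPM per kilobase of exon, which allows genes to be compared, the subunits stood at unequal levels. Mcm6 was the highest subunit in 3 of 3 Myc/Akt1 libraries and in 1 Myc/NrasG12V library, with Mcm7 highest in the other 2. The ratio of the highest to the lowest subunit was 3.08 to 5.33 in Myc/NrasG12V and 4.34 to 5.06 in Myc/Akt1, so these ranges overlap.

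Mcm10 (ENSMUSG00000026669, chromosome 2, 4989714 to 5012791), which binds the MCM ring and helps it to start, had the lowest adjusted p of all members. Its level was 7.26, 6.57 and 6.77 CPM in Myc/NrasG12V and 51.0, 50.5 and 57.8 CPM in Myc/Akt1, tight in both groups and 7.74-fold apart (log2 difference -2.78, SE 0.18, adjusted p = 3.78e-05). Cdc45 joins the MCM ring and GINS in the active helicase and was at 1.58, 2.25 and 2.40 CPM in Myc/NrasG12V and 13.2, 13.1 and 6.998 CPM in Myc/Akt1, 5.35-fold higher in Myc/Akt1 (log2 difference -1.94, SE 0.29, adjusted p = 0.00125). Of the 4 GINS genes, Gins2 differed most, at 0.716, 1.06 and 1.12 CPM in Myc/NrasG12V and 7.85, 8.58 and 8.77 CPM in Myc/Akt1 (log2 difference -2.26, SE 0.21, adjusted p = 1.55e-04). Gins2 shares 67.3% of its exon bases with Gse1 on the opposite strand, and the sources used here do not give the strand setting of the counting, so this value is uncertain. Gins1 and Gins4 were 4.45-fold and 2.40-fold higher in Myc/Akt1. Gins3 was low in Myc/NrasG12V, at 1.05, 0.459 and 0.503 CPM from 41 reads, and was at 1.70, 2.15 and 2.00 CPM in Myc/Akt1, from 144 reads. Its adjusted p was 0.0127 with limma, 0.0644 with edgeR and 0.0512 with DESeq2.

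Primase and replicative polymerase genes were lower in 7 of 9 cases, with a median log2 difference of -1.46. Prim1 (ENSMUSG00000025395, chromosome 10, 128015168 to 128030037), the catalytic subunit of primase, was at 4.15, 7.44 and 2.35 CPM in Myc/NrasG12V and 43.5, 34.4 and 33.5 CPM in Myc/Akt1, 7.99-fold higher in Myc/Akt1 (log2 difference -2.85, SE 0.33, adjusted p = 4.10e-04). Pola1 (ENSMUSG00000006678, chromosome X, 93304767 to 93632155), the catalytic subunit of polymerase alpha, was at 3.58, 6.84 and 2.57 CPM in Myc/NrasG12V and 23.97, 24.8 and 15.4 CPM in Myc/Akt1 (log2 difference -2.12, SE 0.33, adjusted p = 0.00160). For both, Myc/NrasG12V replicate 2 was the highest library of its group and still below each Myc/Akt1 library. Their partners differed less: Prim2 was 2.94-fold higher in Myc/Akt1, and Pola2, at 7.11, 5.51 and 9.17 CPM in Myc/NrasG12V and 15.6, 16.8 and 10.1 CPM in Myc/Akt1, 1.95-fold higher. The Pola2 call (adjusted p = 0.0326) was lost in 11 of the 16 alternative settings, among them TMM factors (adjusted p = 0.105) and edgeR (adjusted p = 0.0971).

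Pole, the catalytic subunit of polymerase epsilon on the leading strand, was at 6.64, 8.26 and 8.44 CPM in Myc/NrasG12V and 46.1, 41.9 and 22.3 CPM in Myc/Akt1 and 4.73-fold higher in Myc/Akt1 (log2 difference -2.05, SE 0.29, adjusted p = 9.64e-04). Its partner Pole2 was 4.25-fold higher. Polymerase delta, the lagging strand enzyme, differed by subunit. Pold2, an accessory subunit, was 3.11-fold higher in Myc/Akt1 (adjusted p = 5.27e-04). Pold1, the catalytic subunit, was at 6.88, 10.1 and 9.79 CPM in Myc/NrasG12V and 12.3, 14.96 and 12.5 CPM in Myc/Akt1, so the groups lay apart by a narrow gap without passing the test (log2 difference -0.53, SE 0.23, adjusted p = 0.0934). Pold3, a further accessory subunit, was at 14.4, 17.6 and 20.9 CPM in Myc/NrasG12V and 22.1, 22.3 and 19.0 CPM in Myc/Akt1, with overlapping groups (log2 difference -0.26, SE 0.20, adjusted p = 0.345). The Pold3 difference had the opposite sign, 0.05, with edgeR. Its 95% interval in CPM ran from -0.72 to 0.21, which holds the median of all genes.

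The sliding clamp and its loader were lower in 6 of 6 cases, with a median of -1.49. Pcna (ENSMUSG00000027342, chromosome 2, 132249162 to 132253314), the ring that tethers polymerases to DNA, was at 11.7, 22.8 and 18.0 CPM in Myc/NrasG12V and 96.0, 90.7 and 53.7 CPM in Myc/Akt1, and all 3 Myc/Akt1 libraries were above all 3 Myc/NrasG12V libraries (log2 difference -2.14, SE 0.30, adjusted p = 9.19e-04). The 5 subunits of replication factor C, which opens the ring, ranged from 2.16-fold for Rfc2 to 3.65-fold for Rfc4, with Rfc1 at 2.27-fold, Rfc3 at 2.75-fold and Rfc5 at 3.47-fold. All 5 kept groups that lay apart. On the opposite strand, other genes cover 15.1% of the exon bases of Rfc2, 12.7% of Rfc4 and 10.7% of Rfc5. Members of other roles are covered there too, among them Orc1 for 10.8% and Mcm7 for 8.70%. Same-strand genes cover 3.89% of the exon bases of Mcm7 and 8.50% of those of Pole2.

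Genes of single-strand binding and Okazaki fragment joining were lower in 4 of the 4 that could be tested, with a median of -1.91. Rpa1 (ENSMUSG00000000751, chromosome 11, 75298166 to 75348324), the large subunit of replication protein A, was at 21.5, 24.8 and 18.8 CPM in Myc/NrasG12V and 162, 173 and 93.8 CPM in Myc/Akt1, 6.58-fold higher in Myc/Akt1 (log2 difference -2.62, SE 0.25, adjusted p = 1.80e-04). Its partners Rpa2 and Rpa3 were 2.47-fold and 3.48-fold higher. Lig1, the ligase that seals Okazaki fragments, was at 5.40, 10.3 and 3.91 CPM in Myc/NrasG12V and 38.1, 34.1 and 24.5 CPM in Myc/Akt1 (log2 difference -2.21, SE 0.33, adjusted p = 0.00125). Fen1, the nuclease that trims their flaps, was the member that did not pass the filter, at 0, 0.138 and 0.280 CPM in Myc/NrasG12V and 0.339, 0.574 and 0.318 CPM in Myc/Akt1, from 8 and 31 reads per group. It was low in every library, and 84.2% of its exon bases are shared with Tmem258 and Gm10143 on the opposite strand, so its value is uncertain and was not tested.

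The largest differences were in deoxynucleotide synthesis, where 4 of 5 genes were lower with a median of -2.33. Rrm2 (ENSMUSG00000020649, chromosome 12, 24708241 to 24714146), the small subunit of ribonucleotide reductase that is made in S phase, was at 6.21, 18.1 and 13.1 CPM in Myc/NrasG12V and 145, 136 and 102 CPM in Myc/Akt1. It was 12.5 ± 5.99 CPM against 128 ± 22.6 CPM (SD, n = 3 each), a 10.2-fold difference (log2 difference -3.35, SE 0.34, adjusted p = 2.27e-04), and all 3 Myc/Akt1 libraries lay far above all 3 Myc/NrasG12V libraries. Rrm1 (ENSMUSG00000030978, chromosome 7, 102441695 to 102469771), the large subunit, was at 9.93, 15.98 and 7.72 CPM in Myc/NrasG12V and 119.7, 95.1 and 54.5 CPM in Myc/Akt1, 8.01-fold higher in Myc/Akt1 (log2 difference -2.88, SE 0.34, adjusted p = 4.18e-04). The 2 subunits of the S phase enzyme were the members with the largest differences in log2(CPM + 1). By fold of mean CPM, Gins2, whose value is uncertain, was above Rrm1 at 8.72-fold. With edgeR the log2 difference was -2.81 for Gins2 and -2.66 for Rrm1.

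The thymidylate genes followed. Tyms, thymidylate synthase, was at 7.07, 11.1 and 5.98 CPM in Myc/NrasG12V and 49.7, 37.6 and 43.6 CPM in Myc/Akt1 (log2 difference -2.33, SE 0.25, adjusted p = 2.87e-04), and Tk1, the cytosolic thymidine kinase, at 7.26, 7.58 and 8.56 CPM in Myc/NrasG12V and 40.6, 37.1 and 40.3 CPM in Myc/Akt1 (log2 difference -2.20, SE 0.18, adjusted p = 1.09e-04). The Tk1 libraries lay close together within each group. Dut, the dUTPase that keeps uracil out of DNA, was the exception, at 5.78, 11.3 and 53.8 CPM in Myc/NrasG12V and 50.9, 43.7 and 31.7 CPM in Myc/Akt1. Myc/NrasG12V replicate 3 was above all other libraries, and the groups overlapped (log2 difference -1.35, SE 0.65, adjusted p = 0.130). Without that library Dut was 4.92-fold higher in Myc/Akt1, with a limma adjusted p of 0.00119. The same library had the highest summed neutrophil and erythroid markers of all 6, at 189 and 1869 CPM, and their part in the Dut value was not tested.

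Genes that rebuild chromatin behind the fork were lower in 3 of 3 cases, with a median of -1.77. Uhrf1 (ENSMUSG00000001228, chromosome 17, 56303321 to 56323486), which brings the maintenance methyltransferase to newly copied DNA, was at 2.34, 8.49 and 3.69 CPM in Myc/NrasG12V and 30.7, 40.3 and 18.7 CPM in Myc/Akt1 (log2 difference -2.48, SE 0.42, adjusted p = 0.00217). It was 6.18-fold higher in Myc/Akt1, and 9.92-fold without Myc/NrasG12V replicate 2, so 1 library set part of its size. Chaf1a and Chaf1b, subunits of the histone chaperone CAF-1, were 4.49-fold and 2.66-fold higher. Chaf1a shares 52.5% of its exon bases with Ubxn6 on the opposite strand, so its value is uncertain.

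**Figure D2:**
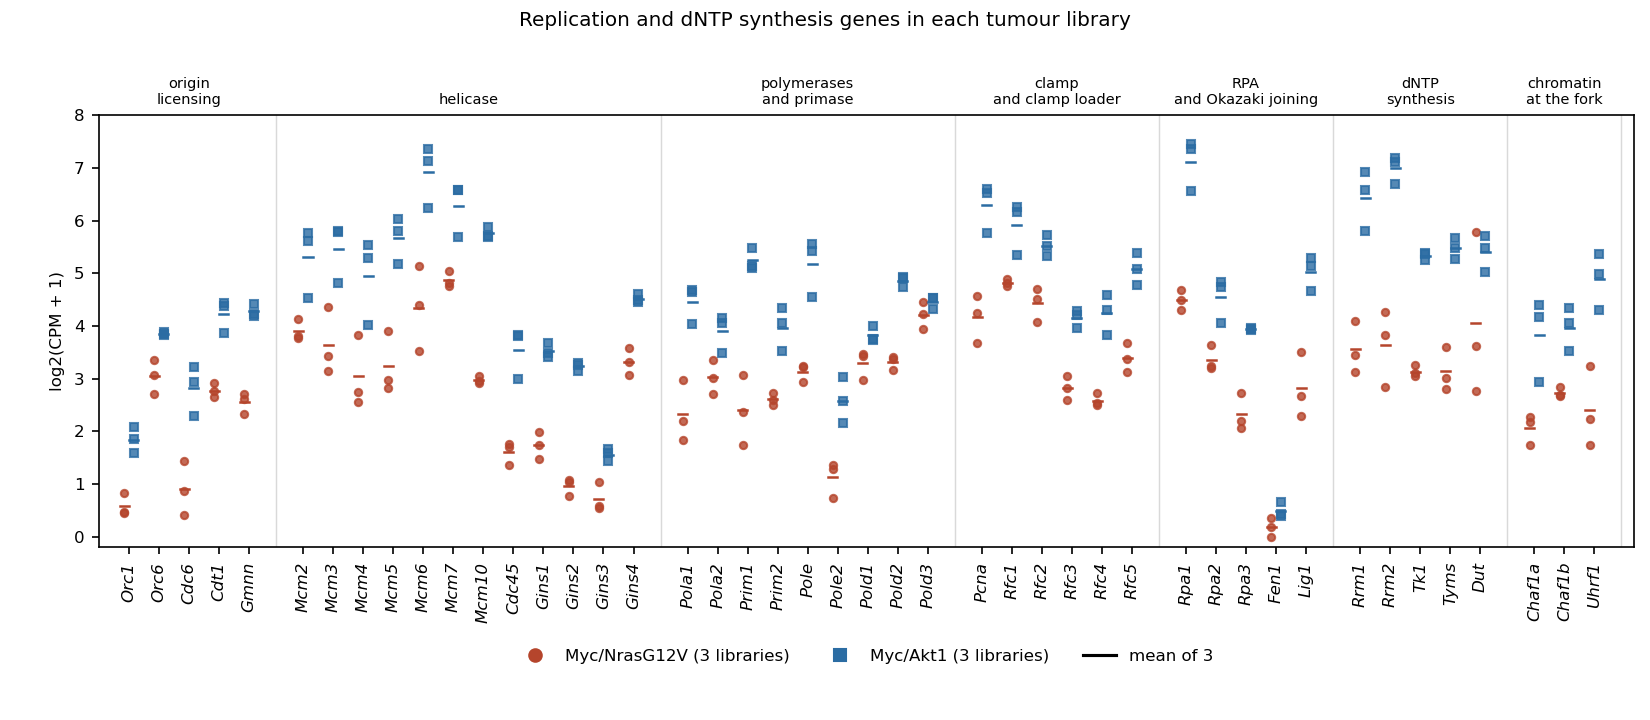
Level of each of the 45 members in each library, as log2(CPM + 1) on the vertical axis, with circles for the 3 Myc/NrasG12V and squares for the 3 Myc/Akt1 libraries and bars for the group means. The groups lie apart for 42 of the 44 tested members and overlap for Pold3 and Dut, and Fen1 is near 0 in all libraries.

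The order of the members by level, in mean CPM per kilobase of exon, differed between the tumour types. In Myc/Akt1 the highest were Rrm2 at 46.2, Pcna at 33.4, Mcm6 at 27.0 and Rpa1 at 25.7. In Myc/NrasG12V the highest were Dut at 9.81, a mean that rests on replicate 3, then Pcna at 7.29, Gins4 at 6.76 and Mcm7 at 6.41, while Rrm2 stood at 4.51. Fen1, Orc1 and Cdc6 were among the 4 lowest members in both, at or below 1.202 CPM per kilobase.

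Members also varied together within a group. In Myc/Akt1, replicate 3 was the lowest library for 33 of 44 members (75.0%), where it was the lowest for 41.0% of all tested genes. Its values were lower for Mcm4, Chaf1a and Mcm2 in particular, and close to the others for Mcm10, Tk1, Cdt1 and the GINS genes. In Myc/NrasG12V, replicate 1 was the lowest for 24 of 44 members (54.5%, against 33.8% of all genes). Replicate 2 was the highest for 22 (50.0%, against 22.8%) and replicate 3 for 20 (45.5%, against 51.7%), with Mcm3, Mcm4, Mcm5, Mcm6, Prim1, Lig1 and Uhrf1 among those highest in replicate 2. The median SD of a member on the log2 scale was 0.27 in Myc/NrasG12V and 0.35 in Myc/Akt1, beside 0.27 and 0.22 over all genes. Without Myc/Akt1 replicate 3 the number of members called lower was 40 (27.1% of all genes were lower), and without Myc/NrasG12V replicate 2 it was 39 (22.3% of all genes).

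**Figure D3:**
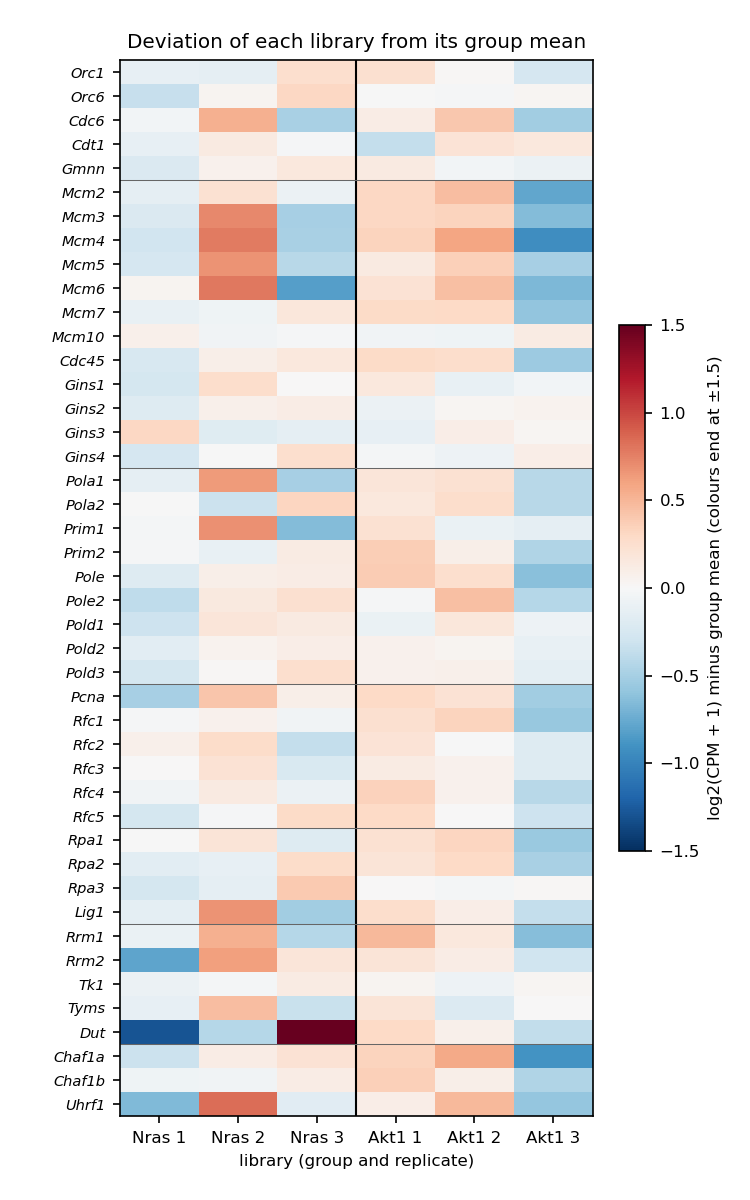
Deviation of each library from the mean of its own group, in log2(CPM + 1), for the 44 tested members (rows, in order of role) and 6 libraries (columns), red above and blue below. Myc/Akt1 replicate 3 is blue for most rows, and the row of Dut stands out, with Myc/NrasG12V replicate 3 above the end of the colour scale.

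The balance of 2 genes within a library was compared for 10 pairs with an exact two-sided permutation test, whose smallest possible p with 3 against 3 samples is 0.1. Ratios are of CPM + 1, and the added 1 makes those of low genes depend on it. The groups lay apart for 7 pairs, each at an exact permutation p of 0.1 (0.143 after Benjamini-Hochberg adjustment over the 10 pairs), so no pair could pass 0.05. Rrm2 relative to Rrm2b, the p53-inducible small subunit used outside S phase, was 1.495, 4.54 and 2.16 in Myc/NrasG12V and 16.8, 17.9 and 15.3 in Myc/Akt1, a 6.78-fold difference between the geometric means. Tk1 relative to Tk2, the mitochondrial thymidine kinase, was 0.380, 0.463 and 0.377 against 2.03, 1.94 and 1.64, 4.59-fold. In both pairs the ratio of the S phase enzyme to its counterpart was higher in all 3 Myc/Akt1 libraries. Pole relative to Pold1 was 0.970, 0.835 and 0.876 against 3.55, 2.69 and 1.73, 2.86-fold. Mcm10 relative to Mcm2 was 0.605, 0.432 and 0.551 against 1.06, 0.949 and 2.55, 2.61-fold.

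The ratios of Cdc6 to Orc6, 2.14-fold, of Rfc4 to Rfc1, 1.47-fold, and of Pole2 to Pole, 0.665-fold, also lay apart, but they moved with the pseudocount. Their exact permutation p rose to 0.3 for Cdc6 to Orc6 and 0.4 for Rfc4 to Rfc1 with a pseudocount of 5, and to 0.5 for Pole2 to Pole with 0.1. The groups overlapped for Rrm2 to Rrm1, Cdt1 to Gmnn and Chaf1b to Chaf1a. Rrm2 to Rrm1 was 0.659, 1.13 and 1.62 in Myc/NrasG12V and 1.21, 1.43 and 1.86 in Myc/Akt1.

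**Figure D4:**
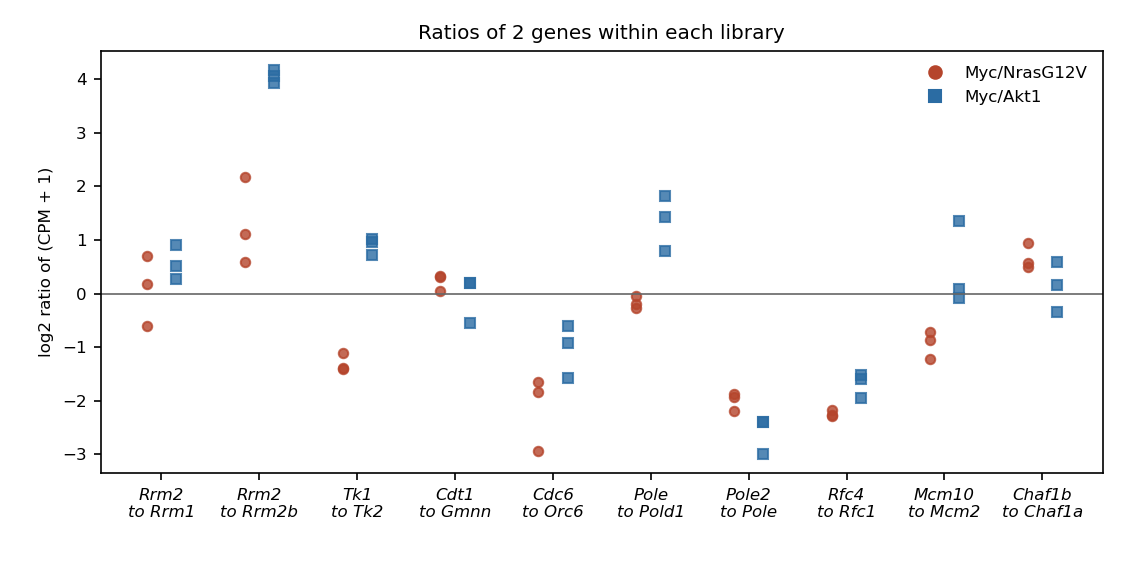
Log2 of the ratio of (CPM + 1) of 2 genes in each library for 10 pairs, circles for Myc/NrasG12V and squares for Myc/Akt1, 3 libraries each. Rrm2 to Rrm2b and Tk1 to Tk2 lie far apart between the groups, while Rrm2 to Rrm1, Cdt1 to Gmnn and Chaf1b to Chaf1a overlap.

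Other genes of the pathway, from 3 further lists, were lower in part. Of 39 other replication genes 26 were lower, of 20 other dNTP supply genes 9, and of 18 genes of de novo purine and pyrimidine synthesis 10, with medians of -1.05, -0.49 and -0.68, where 29.5% of all tested genes were lower. None of the 77 was higher with limma or edgeR, and 0 were higher at an unadjusted p under 0.05, while DESeq2 called Ctps2, a CTP synthase, higher (adjusted p = 0.0431), where it called 19.2% of all genes higher. With TMM factors 35 of the 77 were lower, and 5 of the 18 de novo genes, where 17.9% of all genes were lower.

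Among the other replication genes the lowest adjusted p belonged to Chtf18, Top2a and Esco2. Chtf18, of an alternative clamp loader, was at 1.29, 1.42 and 1.34 CPM in Myc/NrasG12V and 7.47, 8.29 and 6.23 CPM in Myc/Akt1 (adjusted p = 3.87e-04). Top2a, the topoisomerase that untangles copied chromosomes, was at 9.93, 16.9 and 6.88 CPM in Myc/NrasG12V and 152, 129 and 59.7 CPM in Myc/Akt1, 10.1-fold higher in Myc/Akt1 (adjusted p = 5.51e-04). Esco2, the acetyltransferase that sets cohesion during S phase, was at 1.05, 2.07 and 0.727 CPM in Myc/NrasG12V and 34.4, 32.7 and 10.9 CPM in Myc/Akt1, 20.3-fold higher (adjusted p = 6.06e-04). For all 3 the groups lay apart. Of the 4 origin complex subunits in this list, Orc3 was lower (log2 difference -0.77, SE 0.16, adjusted p = 0.00599), while Orc2, Orc4 and Orc5 were not called, at -0.56, -0.32 and -0.45 on the log2 scale. The Orc3 call was lost with upper-quartile factors (adjusted p = 0.0648). Dbf4, the activator of the kinase CDC7 that fires origins, was lower (log2 difference -1.83, SE 0.27, adjusted p = 0.00122), and Cdc7 itself was not called, at -0.31. These 6 genes were named after their values were seen.

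Of the other dNTP supply genes, Shmt1, which makes the folate that thymidylate synthase uses, was at 127, 112 and 138 CPM in Myc/NrasG12V and 316, 344 and 302 CPM in Myc/Akt1, 2.55-fold higher in Myc/Akt1 (adjusted p = 4.67e-04), with groups that lay apart. Tk2, Rrm2b and Samhd1, which supply dNTPs outside S phase or break them down, did not pass the test. Tk2 was at 20.7, 17.5 and 24.3 CPM in Myc/NrasG12V and 19.6, 18.7 and 24.2 CPM in Myc/Akt1 (log2 difference 0.00, SE 0.20, adjusted p = 0.999), and Samhd1, a dNTP hydrolase, at 44.8, 25.7 and 24.8 CPM in Myc/NrasG12V and 30.0, 33.5 and 27.8 CPM in Myc/Akt1 (log2 difference 0.01, SE 0.25, adjusted p = 0.977). Rrm2b was at 3.82, 3.21 and 5.54 CPM in Myc/NrasG12V and 7.72, 6.68 and 5.77 CPM in Myc/Akt1 (log2 difference -0.59, SE 0.25, adjusted p = 0.0897), and without Myc/NrasG12V replicate 3 its limma adjusted p was 0.0276. In the de novo pathways Prps2, a phosphoribosyl pyrophosphate synthetase, was 2.66-fold higher in Myc/Akt1 (adjusted p = 5.70e-04), Umps, which makes UMP, 3.17-fold (adjusted p = 5.90e-04), and Paics, of purine synthesis, 2.69-fold (adjusted p = 0.00161).

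**Figure D5:**
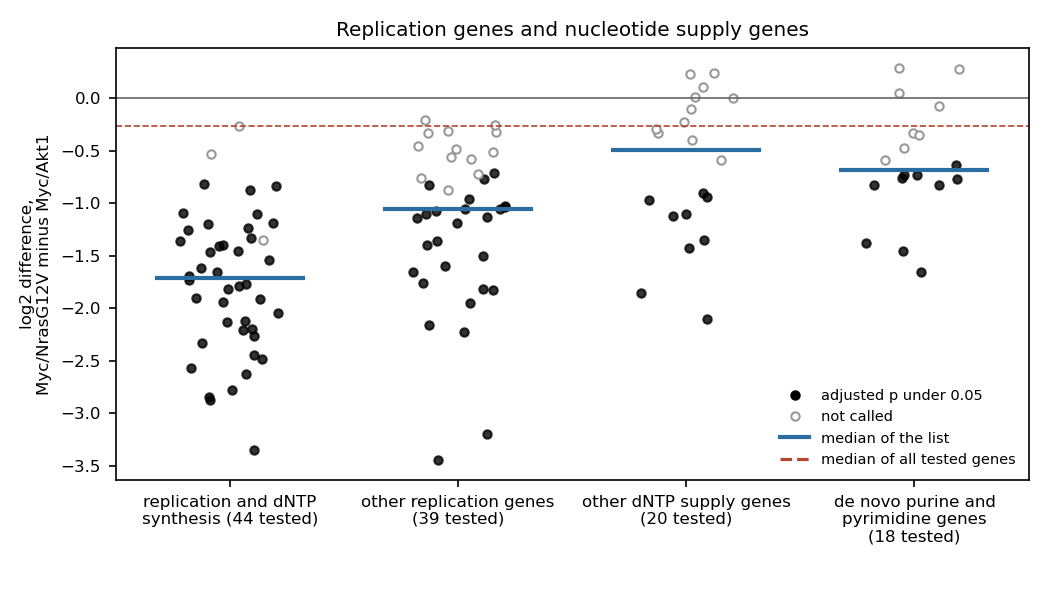
Log2 difference (Myc/NrasG12V minus Myc/Akt1) of each tested gene in 4 lists, with filled points for an adjusted p under 0.05, bars at the list medians and a dashed line at the median of all genes (-0.26). The medians are -1.71, -1.05, -0.49 and -0.68 from left to right, and no filled point lies above 0.

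Markers of other cells differed between the groups beside these genes, and their counts stand beside the 10% of all tested genes that were higher and the 29.5% that were lower. Summed neutrophil markers were 22.7 to 189 CPM in Myc/NrasG12V and 1.73 to 2.12 CPM in Myc/Akt1, with 5 of the 7 tested genes of 8 higher in Myc/NrasG12V, and Mpo and Ngp each at 0 reads in 2 of the 3 Myc/Akt1 libraries. Summed erythroid markers were 300.4 to 1869 CPM against 49.8 to 103 CPM, with 6 of 8 genes higher. Hepatocyte markers summed to 109586 to 147665 CPM against 37689 to 51007 CPM, with 2 of 6 higher. Most of this sum was Alb, which was itself not called (limma adjusted p = 0.184). Ttr lay the other way, at 2557, 3014 and 1271 CPM in Myc/NrasG12V and 3707, 3743 and 5546 CPM in Myc/Akt1. It was not called either. T and NK cell markers were 11.5 to 30.8 CPM against 5.35 to 7.90 CPM (3 of 7 higher), B cell markers 3.97 to 12.03 CPM against 5.23 to 8.11 CPM (0 of the 3 tested genes called), and macrophage markers 151 to 306 CPM against 129.7 to 174 CPM (2 of 7 higher). Endothelial markers were 139 to 227 CPM against 158 to 198 CPM (3 of 6 higher, 1 lower), stellate cell markers 415 to 446 CPM against 242 to 357 CPM (2 of 7 higher) and cholangiocyte markers 424 to 968 CPM against 127 to 262 CPM (1 of 5 higher). Only Dcn and Reln were called among the stellate genes. The cholangiocyte sum was mostly Spp1, at 951, 517 and 409 CPM in Myc/NrasG12V and 250, 115 and 250 CPM in Myc/Akt1. Krt19, Krt7, Epcam and Sox9 were not called. The part of these cells in the members' differences was not tested.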

How the data were processed

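The deposited tables, 1 per sample, hold 1 value per gene in CPM, although their column is named reads. In each, 100% of values were whole multiples (within 0.01 read) of the value of 1 read, so whole reads were recovered. Per the submitters' processing notes, STAR 2.6.1c, Subread 1.6.3, edgeR 3.22.5 and GRCm38 were used. No strand setting or annotation release is named in the sources used here. Gene positions and exon lengths came from GENCODE M21, where all 45 members were matched, and promoters from RefSeq (GRCm38.p6).

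Genes passing filterByExpr (0.457 CPM in 3 libraries, 15 reads in total) were tested with limma 3.58.1 (trend, two-sided, no covariate) on log2(CPM + 1), with Benjamini-Hochberg adjustment over 14365 genes, the test planned for normalized values. Folds divide the mean CPM of one group by that of the other. Alternatives were edgeR 4.0.16 and DESeq2 1.42.0 on the recovered reads (R 4.3.3), 3 other scalings, 2 filters, 2 pseudocounts, a replicate block and leaving out each library. No pair of replicates agreed within sampling noise (chi-square per gene 31.3 or more).

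On simulated data of 14365 genes, limma found 27.5% of 69 genes with a 1.5-fold change, 90.6% of 64 with 2-fold and 100% of 67 with 4-fold, with 8 false among 152 calls. Only this small share of genes was changed, in both directions and none of low level, with a dispersion of 0.03 for every gene. These rates may not hold for the real data, where many more genes were called.

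The members and lists were chosen with earlier results of these data known. Named with values in every sample were the 10 members with the largest log2 difference, every member not called, and 19 members fixed by name, then 3 genes of lowest adjusted p from each further list with Rrm2b, Tk2, Samhd1 and Top2a. Values of 2 genes that this rule names are not reported here. Pold4 was left out because its symbol stands on 2 rows.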

Additional observations from a re-analysis of the deposited data

How the results depend on the processing

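Across the 16 alternatives the number of members lower in Myc/NrasG12V was 38 (edgeR and DESeq2) to 42, with 39 to 42 when 1 library was left out. None was higher in any. Of all genes, 16.3% (upper-quartile factors) to 32.6% (without Myc/NrasG12V replicate 3) were lower and 5.75% to 19.2% higher in these settings. The members' median log2 difference was -1.37 with upper-quartile factors and -1.19 with a pseudocount of 5, since a larger pseudocount shrinks the differences of low genes, and -1.83 to -1.61 when 1 library was left out. Other pathway genes lower numbered 32 to 45 over the alternatives that kept all libraries, where 16.3% to 31.5% of all genes were lower. They numbered 37 to 51 when 1 library was left out (19.5% to 32.6% of all genes), and 1 was higher with DESeq2 (19.2% of all genes). De novo nucleotide genes lower numbered 10 in CPM (29.5% of all genes were lower) but 5 with TMM factors (17.9%), edgeR (17.5%) or DESeq2 (19.5%) and 4 with median-of-ratios (17.5%) or upper-quartile factors (16.3%). Calls on genes near the threshold therefore depend on the scaling.

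Replicate numbers are shared between the groups in the labels. Deviations from the group means correlated by -0.08, 0.11 and 0.08 between same-numbered samples, so the numbers were not taken as pairs. With the replicate block, 40 members (28.3% of all genes) and 44 other pathway genes were lower.

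Depth limits Orc1, Gins3 and Fen1 most, whose levels in most Myc/NrasG12V libraries were a few times the 3-read floor or less. It also limits Cdc6, at 0.336 CPM in Myc/NrasG12V replicate 3, where the floor was 0.168 CPM.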
